A study of Canis lupus familiaris with 10 samples.

Results

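In ATAC-seq libraries of 17-71 and CLBL-1, cell lines from canine B-cell lymphomas, peaks of the 10 libraries merged into 59420 accessible regions, of which 8124 (13.7%) were narrower than 3 kb and carried a peak in every library. These are called the shared regions here. They were chosen from measured values, namely the positions of the peaks, which the authors called in each library at a −log10 p of 5 or more, and the width of the merged region. Having a peak everywhere is therefore the definition of the set and not a finding. The values described are how strongly, how evenly and where the shared regions were accessible, and how their enrichment compared between C220 and control and between the lines.

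ATAC-seq uses a transposase that cuts and tags DNA not wrapped around nucleosomes, so stretches dense in sequenced fragments mark accessible chromatin. Chromatin that is open in every cell type typically includes promoters of widely expressed genes and sites bound by architectural proteins, while enhancers differ more between cell types. PRMT5 places symmetric dimethyl marks on arginines of histones, where they are tied to gene silencing, and of many other proteins, among them Sm proteins of the spliceosome.

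Line 17-71, collected on day 4, gave 3 control libraries (B1, B2 and B3) and 2 libraries treated with 100 nM of C220, a selective PRMT5 inhibitor that the sample labels name PR220 (B4 and B6). Line CLBL-1, collected on day 2, gave control libraries C2 and C3 (n = 2) and, at the same dose of C220, libraries C4, C5 and C6 (n = 3). Both lines are labelled as B-cell lymphoma from lymph node, and no further genetic change or agent is named for any group. The labels do not say whether the controls received a vehicle. The study describes its ATAC-seq experiments as biological replicates, while the labels do not tie the libraries of a group to separate cultures, and p-values measure the spread between these libraries. Each line is 1 cell line, and line and day of collection cannot be told apart. B-cell marker genes could not be looked up at the peaks, so the cell type rests on the labels.

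Presence in all libraries was the most frequent outcome above presence in 5. The merged regions with a peak in 1 library numbered 12281, those in 5 libraries 11773, those in 9 libraries 2334 and those in all 10 libraries 9179. Of these 9179, 1055 were 3 kb or wider and are used below only for comparison. The 2077 regions under 3 kb that missed the set by 1 library lacked a peak in B4 in 1110 cases (53.4%), in B6 in 268 and in B1 in 3. B4 was the library with the fewest peaks (22076) and B1 the one with the most (44378). The depth of the libraries is unknown from peak lists, and its part in these absences was not tested.

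**Figure D1:**
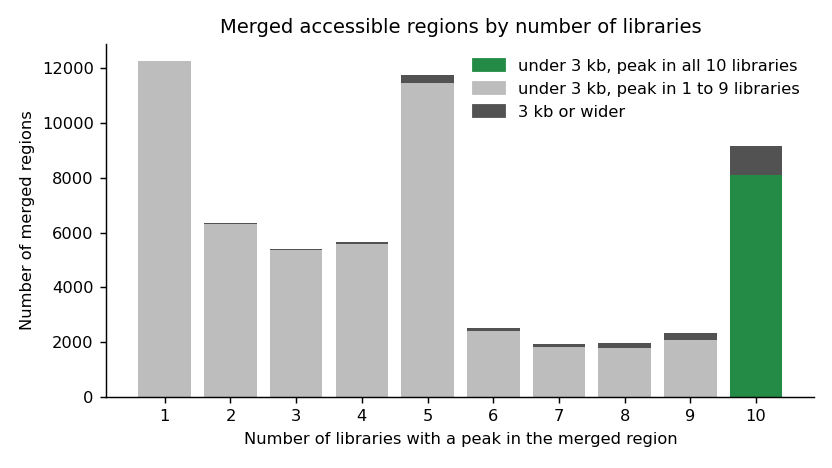
Number of merged accessible regions (y axis) by the number of libraries with a peak in the region (x axis), with the shared regions in green and regions of 3 kb or more in dark grey. The bar at 10 libraries holds 9179 regions, 8124 of them under 3 kb, and exceeds each bar from 6 to 9 libraries.

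The shared regions were 370 to 2999 bp wide with a median of 1566.5 bp, and covered 13.5 Mb in all. A stretch of DNA inside a peak of all 10 libraries existed in 8084 of them, with a median length of 668 bp or 46.8% of the region's width. In the other 40, the peaks of some libraries lay beside each other within the merged region, so no single base was called in every library. At the width threshold, the 3 widest shared regions were chr18:46087319-46090317 and chr3:37684336-37687334, both of 2999 bp, and chr18:54181427-54184424 of 2998 bp, with median fold enrichments of 3.13, 3.43 and 4.96. The 3 narrowest regions just outside it were chr17:39152595-39155594 and chrX:101235609-101238608, both of 3000 bp, and chr20:50664359-50667360 of 3002 bp, with medians of 4.29, 2.46 and 4.15. Coordinates are 1-based in CanFam3.1.

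Many of the shared regions rested on a weak call in at least 1 library. The smallest −log10 p over the 10 libraries had a median of 9.26 and was 6 or more in 6708 regions (82.6%), 10 or more in 3655, 20 or more in 1257 and 50 or more in 151. The weakest call was that of B4 in 49.6% of the shared regions and that of B6 in 20.77%, against 0.0739% for B1. One region at the threshold was chr1:62066518-62067786, whose smallest −log10 p was 5.00 and whose largest was 20.6. Its fold enrichment was 5.00, 4.04 and 4.10 in the 17-71 controls, 3.25 in B4, 3.58 in B6, 5.60 and 5.27 in the CLBL-1 controls, and 4.97, 5.01 and 6.26 in the CLBL-1 C220 libraries. The weak call there was that of B4, while CLBL-1 lay at or above most of 17-71.

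The shared regions were the more strongly enriched part of every list. Fold enrichment is the authors' ratio of the fragment pileup in a peak to the local background of the same library, without scaling between libraries. Its median over the shared regions was 5.32, 4.34 and 4.28 in the 17-71 controls B1, B2 and B3, and 4.56 and 4.21 with C220, in B4 and B6. In CLBL-1 it was 5.27 and 4.82 in the controls C2 and C3, and 5.10, 4.83 and 5.21 in the C220 libraries C4, C5 and C6. Peaks outside the regions found in all libraries had lower medians in every library, from 3.32 in B2 to 4.11 in C6. This order follows in part from the rule, since a stronger site is more likely to pass the caller's cutoff in all 10 libraries, and it is given without a test.

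The set made up 18.4% of the peaks of B1 and 37.0% of those of B4, the extremes of the 10 libraries. Among the 1000 peaks of highest fold in each library, it held from 73.5% (B1) to 83.7% (C3). Peaks in the shared regions were also wider than the other peaks, with a median of 838 bp against 624 bp in B4 and 1173 bp against 801 bp in B1. The broad regions of 3 kb or more, although present in all libraries too, held at most 1.9% of these strongest peaks and from 2.89% (B1) to 5.64% (B4) of all peaks.

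**Figure D2:**
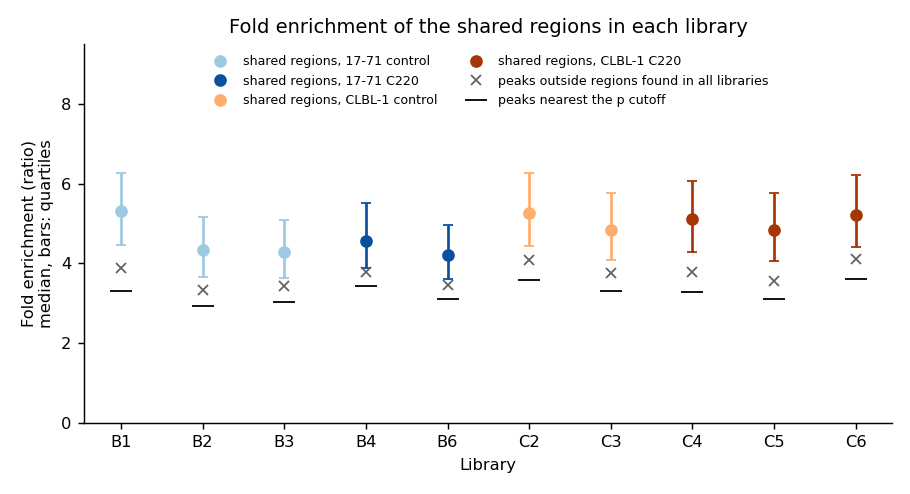
Fold enrichment (ratio, y axis) in each library (x axis), with points at the median and bars at the quartiles of the 8124 shared regions, colored by group, beside the median of peaks outside the regions found in all libraries and of peaks nearest the p cutoff. The shared regions sit between 4.21 and 5.32, above the other peaks of the same library in all 10 libraries.

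The library medians of the shared regions overlapped between C220 and control in both lines. In 17-71 the library medians averaged 4.65 ± 0.58 (SD, n = 3) in control and 4.38 ± 0.25 (n = 2) in C220, a difference of -0.26 (exact two-sided permutation test over libraries, p = 0.8). In CLBL-1 they averaged 5.04 ± 0.31 (n = 2) and 5.05 ± 0.19 (n = 3), a difference of 0.0029 (exact permutation test, p = 1). The smallest p these designs allow is 0.1. B1 sat above the other 17-71 libraries, and without it the difference in 17-71 was 0.0748.

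The regions of highest rank were narrow. Each region's fold was turned into its percentile among the peaks of a library and averaged over the 10 libraries. The first was chr7:5007090-5007473, 384 bp wide, with fold enrichments of 16.9, 15.0 and 14.4 in the 17-71 controls, 19.0 and 16.2 with C220, 18.3 and 16.1 in the CLBL-1 controls, and 18.0, 17.8 and 17.2 with C220. Its −log10 p ran from 1628 to 4369, and C220 and control overlapped in both lines, while the 17-71 controls lay below the CLBL-1 C220 libraries. The next was chr2:36287661-36288030, at 370 bp the narrowest of all shared regions, with folds from 14.5 in B3 to 18.8 in B4. The remaining regions among the 5 highest were chr2:85408808-85409467, chr19:12735419-12735835 and chr8:72144412-72144828, with median folds of 15.7, 15.5 and 15.3. In all of these B4 or C2 held the highest value and B2 or B3 the lowest.

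Width fell along the whole ranking. The 1524 shared regions with a mean percentile up to 50 had a median width of 2015 bp, the 3043 from there to 75 one of 1693 bp, and the 610 above 95 one of 1142 bp. The fold is an average over the called peak, so width and fold are not independent measures.

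A small group, picked after its values were seen, had very large −log10 p values. In 33 of the 8124 shared regions the −log10 p was 100 or more in every library, up to 13326, whereas the median over all shared regions of the median −log10 p was 19.7. These 33 regions lay on 22 chromosomes, had a median width of 731 bp, and 21 were under 1000 bp wide. Their median fold was 11.2, against 4.79 over all shared regions. Over the 10 libraries, the SD of their log2 fold, centred on each library's median, had a median of 0.11, against 0.17. The C220 minus control difference in 17-71, after centring removed a shift of -0.08, was above 0 in 33 of 33, against 4689 of the 8124. Its median on the log2 scale, relative to the median region, was 0.23, against 0.04. None of the 33 was called. Without B4 it was above 0 in 32, with a median of 0.18. In CLBL-1 it was above 0 in 24 of 33, with a median of 0.0419. These differences are a description, since a minimum set in every library bears most on B4 and B6, which held the weakest call most often. One of the 33 regions, chr20:45387420-45387814, overlapped the end of BST2, which encodes a membrane protein that tethers budding viruses. Its folds were 15.3, 13.9 and 13.1 in the 17-71 controls, 17.1 and 14.5 with C220, 16.2 and 13.9 in the CLBL-1 controls, and 14.9, 15.2 and 15.0 with C220, with all groups overlapping. Reads that fit several places in the genome were given 1 place by the authors' alignment, and whether such reads contribute to these regions was not tested.

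The most even shared regions covered a wide range of strength. The SD of the centred log2 folds over the 10 libraries ranged from 0.037 to 0.74 with a median of 0.17. The smallest SD belonged to chr28:29750065-29751003, with folds of 8.84, 7.80 and 7.48 in the 17-71 controls, 8.10 and 7.66 with C220, 8.99 and 8.71 in the CLBL-1 controls, and 9.03, 8.59 and 8.98 with C220. All 17-71 libraries except B1 lay below all CLBL-1 libraries before centring, as did their library medians. The next were chr3:54575366-54576519 with a median fold of 6.12, chr1:112350832-112353139 with 3.28, chr27:1617469-1618614 with 6.84 and chr12:3062833-3064480 with 4.56. Even accessibility was found at strong and at weak regions, and the median SD was 0.17 in the lowest and 0.13 in the highest percentile class.

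Libraries of the same line ranked the shared regions alike. As a description across 8124 regions, which are not independent and share each library's depth, Spearman's rho of the fold lay between 0.85 and 0.90 for the 10 pairs of CLBL-1 libraries and between 0.64 and 0.88 for the 10 pairs of 17-71 libraries. For the 25 pairs of libraries of different lines it lay between 0.47 and 0.59. Within CLBL-1, pairs of the same treatment had a median rho of 0.88 and pairs of different treatment one of 0.87. Within 17-71 these medians were 0.80 and 0.72, and B4 stood apart. Its rho with the controls B1, B2 and B3 was 0.66, 0.67 and 0.64, whereas that of B6 was 0.78, 0.82 and 0.80. B4 and B6, both treated, had a rho of 0.76.

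The shared regions were spread over all 39 chromosomes, unevenly. As a share of all merged regions on the chromosome, they ranged from 8.27% on chromosome 34 and 9.53% on chromosome 19 to 18.6% on chromosomes X and 20. Per Mb up to the last peak, chromosome 9 held 6.42 and chromosome 20 held 6.27, against 3.49 overall. The 1 Mb windows with the most were chr6:17000001-18000000, with 31, and chr35:24000001-25000000, with 29. No shared region was found in 544 of the 2331 windows that held any merged region. The nearest neighbour among the shared regions lay at a median of 42002 bp, and 581 regions had one within 5000 bp.

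C220 in 17-71 changed no shared region past the threshold. The comparison used limma on centred log2 folds of the 17601 regions with a peak in all 5 libraries of the line, with p-values adjusted over all of them by the Benjamini-Hochberg method and a call at a false discovery rate (FDR) below 10%. None of the 8124 shared regions was called, as was none of all regions tested (0%). The smallest FDR was 0.109. At an unadjusted p below 0.05 by limma, 1215 shared regions (15.0%) passed, 806 higher and 409 lower with C220. Of all regions tested 14.8% passed, 1723 higher and 883 lower. Centring removed a shift of -0.08 between C220 and control, so directions here are relative to the median region. The median log2 difference was 0.04, the differences ran from -0.28 at the 5th to 0.34 at the 95th percentile of the regions, and the 95% interval had a median width of 0.27 to either side. It stayed within a 2-fold change either way in 8102 of the regions.

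The regions of smallest p had folds that did not overlap between the groups. The first of those higher with C220, chr3:52584350-52586625, had folds of 6.38, 4.78 and 3.91 in the controls and 9.48 and 7.58 with C220. This gave a log2 difference of 0.87 ± 0.14 (SE) with an FDR of 0.109, an unadjusted p of 2.12e-05 by limma and a higher value in 2 of 2 C220 libraries. Both of these exceeded every control, and the CLBL-1 libraries, from 7.93 to 10.3, lay above all 17-71 libraries except B4. The second, chr12:32382615-32384501, had 5.06, 3.50 and 3.68 in the controls and 7.29 and 5.89 with C220, and the next, chr6:23443442-23444875, had 2.68, 2.67 and 2.48 against 4.79 and 3.605. In each of the 3, B4 was the highest of the 17-71 libraries and B6 came next.

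Among those lower with C220, chr1:102484510-102485255 had folds of 6.84, 4.92 and 5.34 in the controls and 3.58 and 3.103 with C220, a log2 difference of -0.67 ± 0.12. The region chr8:47985004-47986532 had 6.80, 5.99 and 6.01 against 3.75 and 3.75, and chr3:1154585-1155440 had 11.2, 7.18 and 7.78 against 5.19 and 5.08. The C220 libraries were below every control in all 3, and none passed the FDR. The call depended on B6: without it, shared regions were called, in a fit that leaves B4 as the only C220 library and takes its spread from the controls. There the log2 differences of the 3 higher regions were 0.98, 0.89 and 0.92, and of the 3 lower ones -0.62, -0.70 and -0.69. Without B4 they were 0.75, 0.68 and 0.60, and -0.73, -0.61 and -0.62. Fitting all 10 libraries together, so that both lines share 1 estimate of the spread, called 279 shared regions (166 higher and 113 lower). The share of all regions tested in that fit is not given, so this count does not set the shared regions apart.

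C220 in CLBL-1 likewise called none of the 8124 shared regions, where 0.00545% of the 18339 regions tested were called. The smallest FDR among the shared regions was 0.532. At an unadjusted p below 0.05 by limma, 400 (4.92%) passed, 155 higher and 245 lower with C220. Of all regions tested 5.74% passed, 451 higher and 602 lower. The log2 differences ran from -0.21 at the 5th to 0.17 at the 95th percentile of the shared regions, and the 95% interval stayed within a 2-fold change either way in 8123 of them. The smallest p belonged to chr6:42424775-42426407, with folds of 6.44 and 7.56 in the controls and 4.39, 4.19 and 4.19 with C220, a log2 difference of -0.72 ± 0.12. Next came chr6:36653856-36655367, with 10.4 and 8.77 against 7.03, 6.39 and 7.19, and chr5:14765356-14768302, with 5.86 and 4.36 against 3.06, 3.07 and 3.51. Each of these was lower in all 3 C220 libraries than in both controls.

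Of those higher with C220, chr15:19481940-19484410 had folds of 4.01 and 4.01 in the controls and 6.19, 5.52 and 5.51 with C220, chr15:550445-551374 had 3.85 and 4.33 against 5.96, 6.60 and 5.85, and chr11:57317965-57319492 had 3.87 and 3.17 against 5.52, 4.56 and 4.99. All of these had an FDR of 0.798 although the groups did not overlap. No alternative setting called a shared region in CLBL-1.

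**Figure D3:**
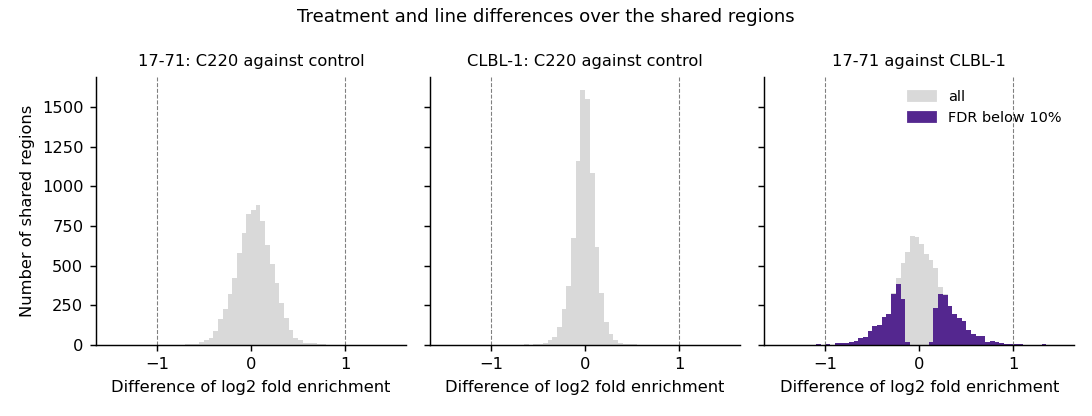
Number of shared regions (y axis) by the difference of log2 fold enrichment (x axis) for C220 against control in 17-71, C220 against control in CLBL-1, and 17-71 against CLBL-1, with regions at an FDR below 10% colored and dashed lines at a 2-fold change. The treatment panels hold no colored region, and the line panel holds 3888, of which 13 lie beyond 2-fold.

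The lines differed at many shared regions, mostly by small amounts. In the limma fit on all 10 libraries, which averaged control and C220 within each line, 2002 shared regions were higher in 17-71 (beside 25.4% of all 9179 regions tested) and 1886 were lower (beside 23.5%). Together these 3888 were 47.9% of the shared regions, beside 56.9% of the regions of 3 kb or more. The median absolute log2 difference of the called regions was 0.31. At least a 2-fold difference was reached by 13 (9 higher and 4 lower in 17-71), beside 0.229% of all regions tested. Centring removed a shift of -0.16 between the lines, so that directions here are relative to the median region. Without centring the balance turned, to 712 higher and 3178 lower, with 2598 regions called both ways of scaling, and the regions at least 2-fold apart became 24, of which 3 were higher and 21 lower. The shares of all regions tested without centring are not given, so these counts do not set the shared regions apart.

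With centring, the largest difference and the smallest p belonged to chr24:47348495-47349456, which also had the largest SD of all shared regions. Its folds in 17-71 were 6.27, 5.40 and 5.45 in control and 5.39 and 4.54 with C220, and in CLBL-1 they were 2.82 and 2.39 in control and 2.13, 2.18 and 2.07 with C220. Every 17-71 library exceeded every CLBL-1 library, and the log2 difference was 1.34 ± 0.07 (SE, FDR = 1.03e-07, limma). The next regions higher in 17-71 were chr9:19869933-19871782, with a log2 difference of 1.34 ± 0.08, and chr9:11683275-11684636, with folds from 5.47 to 5.93 in 17-71 and from 2.43 to 2.92 in CLBL-1.

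In the opposite direction, chr15:8511679-8512294 had folds of 7.36, 5.65 and 5.93 in the 17-71 controls and 5.77 and 5.64 with C220, against 13.6 and 11.3 in the CLBL-1 controls and 12.2, 11.6 and 12.6 with C220. The log2 difference was -0.87 ± 0.06 (FDR = 5.81e-07, limma), and the lines did not overlap. The region chr27:16464479-16467398 ranged from 2.01 to 2.81 in 17-71 and from 5.30 to 5.75 in CLBL-1, and chr4:64398613-64399707 from 2.44 to 3.64 and from 6.18 to 7.65. One of the 13 regions beyond 2-fold was uneven within its line: chr22:61381254-61383404 had folds of 5.05, 10.7 and 6.95 in the 17-71 controls and 14.6 and 11.2 with C220, against 4.62 to 5.08 in CLBL-1. There B1 lay among the CLBL-1 libraries and B4 was the highest of all 10.

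**Figure D4:**
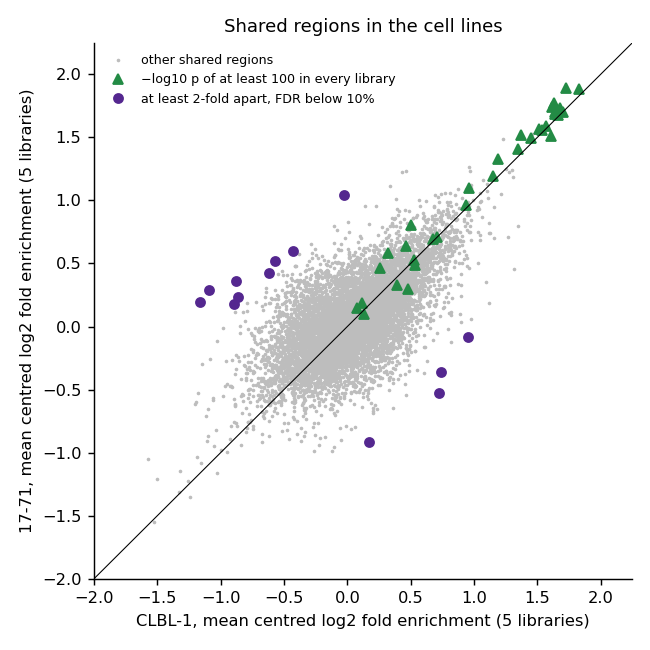
Mean centred log2 fold enrichment of each shared region in CLBL-1 (x axis, 5 libraries) and in 17-71 (y axis, 5 libraries), with the line of equality, the 13 regions at least 2-fold apart as circles and the 33 regions with a −log10 p of 100 or more in every library as triangles. Spearman's rho over all shared regions was 0.62, and the triangles sit near the line of equality, from the middle of the cloud to its upper end.

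The share of shared regions called between the lines was smaller in the higher percentile classes. It was 51.6% in the class with a mean percentile up to 50, 52.0% from there to 75, 45.8% to 90, 40.6% to 95 and 34.1% above. The median absolute log2 difference fell from 0.18 to 0.11 between the lowest and the highest class, while the median 95% interval reached 0.17 and 0.15 to either side. By width it was 54.9% of the 728 regions under 1000 bp, 47.5% of the 2975 from there to 1500 bp, 44.8% of the 2223 to 2000 bp and 49.0% of the 2198 wider ones, with no steady course. These shares are a description, since the classes use the folds of the same libraries.

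Neighbouring shared regions had little in common in their line differences. For the 298 pairs of adjacent shared regions less than 5000 bp apart, Spearman's rho of their line differences was -0.14, and for the 2823 pairs from 20000 to 100000 bp apart it was 0.044. Chromosome medians of the line difference lay between -0.07 and 0.08 on the log2 scale.

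Gene names were taken from the study's table of regions, as far as it was held, in which 97 of the 8124 shared regions were paired with 97 genes. The rows held are the first of that table by p for the C220 response in these libraries. The names are therefore not a sample of the shared regions, and the groups below were formed after the names were seen. Of the 97, 31 were higher in 17-71 and 21 were lower, beside 25.4% and 23.5% of all regions tested, and 45 were not called. Without centring the counts turned to 12 higher and 32 lower, beside 712 and 3178 of all 8124 shared regions. The smallest FDR for C220 was 0.193 in 17-71 and 0.800 in CLBL-1. The region overlapped the start of its gene in 21 and contained the whole gene in 21. Of the lists drawn up for B cell, T cell, myeloid, neuronal, PRMT, PRMT5 partner, spliceosome, housekeeping and proteasome genes, 0 members were named, and of 9 MYC network genes only MAX was. With names for 97 of the 8124 shared regions, a missing name does not show that a gene lacks a shared region.

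Of 19 regions paired with genes of immune cells, 9 were higher in 17-71 and 4 were lower, beside 25.4% and 23.5% of all regions tested, and 6 were not called. The counts were 5 and 6 without centring, beside 712 and 3178 of all 8124 shared regions, and the group was not tested as a set. The region over the start of HLA-DRB1, an MHC class II chain that presents peptides to T cells, had folds of 6.32, 6.14 and 6.35 in the 17-71 controls, 5.34 and 5.25 with C220, 4.43 and 5.02 in the CLBL-1 controls, and 4.52, 4.35 and 5.15 with C220. All 17-71 libraries were above all CLBL-1 libraries, with a log2 difference of 0.46 ± 0.09 (FDR = 0.000735, limma). The region over the start of CCR7, a chemokine receptor that guides lymphocytes into lymph nodes, differed by 0.31 ± 0.08, which was not called without centring (0.14 ± 0.09), and the one upstream of CORO1A, a leukocyte actin regulator, by 0.52 ± 0.11. With centring, the largest difference in the group was downstream of CLEC2D, a ligand of a receptor on natural killer cells. The folds there ran from 5.31 to 8.64 in 17-71 and from 4.31 to 4.87 in CLBL-1. Lower in 17-71 was the region over the start of LCP1, a leukocyte actin-bundling protein, with 3.21 to 4.19 against 5.01 to 5.97 and a log2 difference of -0.34 ± 0.07. Without centring the differences at LCP1 and CLEC2D were -0.51 and 0.47, so the one at LCP1 was then larger in size.

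Of 9 regions paired with transcription and chromatin genes, 4 were higher in 17-71 and 1 was lower, beside 25.4% and 23.5% of all regions tested, and 4 were not called. Without centring 1 was higher and 1 lower, beside 712 and 3178 of all 8124 shared regions. The region inside MAX, the partner of MYC in DNA binding, had folds of 6.97, 6.27 and 6.02 in the 17-71 controls, 5.97 and 6.18 with C220, 6.39 and 6.06 in the CLBL-1 controls, and 5.65, 5.55 and 5.92 with C220. The lines overlapped before centring, and the centred log2 difference was 0.23 ± 0.07 (FDR = 0.0120, limma). Without centring it was 0.07 ± 0.09 and not called. Its C220 differences were 0.01 in 17-71 and -0.13 in CLBL-1. The regions over the starts of SMARCC1, a subunit of the SWI/SNF remodelling complex, and of BTG2, an antiproliferative gene, were not called, with line differences of 0.11 (-0.06 without centring) and -0.02. The region over the start of FTL, the ferritin light chain, was among the other 43 paired regions and was higher in 17-71 by 0.52 ± 0.07. Of these 43, 14 were higher and 9 were lower, beside the same 25.4% and 23.5%, and 20 were not called. Without centring 6 were higher and 14 lower, beside the same 712 and 3178 of all 8124 shared regions.

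Regions at genes of small nuclear RNAs, the RNA parts of the splicing machinery, made up 20 of the 97. They comprised 5 at U1, 5 at U5, 3 at U2, 3 at U6 and 1 each at U4, U4atac, U7 and U11, and 17 contained the whole gene. U7 serves histone mRNA processing instead of splicing. Between the lines, 3 were higher in 17-71 and 7 lower, beside 25.4% and 23.5% of all regions tested, and 10 were not called. Without centring 9 were lower and the other 11 were not called, beside 3178 lower and 712 higher of all 8124 shared regions. Their folds ran from 1.97 to 7.64. None was called for C220. The largest line differences among them were at U2 and U6, at -0.86 ± 0.09 and -0.85 ± 0.09. These genes have near-identical copies, so the place given to their reads by the aligner is uncertain.

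A stretch of 38.8 kb on chromosome 9 held 5 shared regions, 3 of them around U2 genes, with line differences in both directions. The region chr9:19869933-19871782, which carries no gene name in the table, had folds of 5.63, 5.21 and 4.99 in the 17-71 controls, 4.79 and 4.61 with C220, 2.39 and 2.19 in the CLBL-1 controls, and 2.11, 2.33 and 1.99 with C220. Further along, chr9:19894996-19897510, which contains a U2 gene, had 2.75, 2.197 and 2.34 in the 17-71 controls, 2.37 and 2.17 with C220, 4.40 and 5.74 in the CLBL-1 controls, and 4.79, 4.14 and 4.74 with C220. The lines did not overlap at either region, and the order was opposite, at 1.34 ± 0.08 and -0.86 ± 0.09. Of the others, chr9:19858669-19861084 differed by 0.17 and was not called (FDR = 0.126, limma), and the U2 regions chr9:19875143-19877562 and chr9:19888376-19889534 were both called lower in 17-71, with differences of -0.15 and -0.69.

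Whether C220 acted alike in the lines was tested by the difference of the C220 effects. Treatment lasted 4 days in 17-71 and 2 days in CLBL-1, so line and length of treatment cannot be told apart in it. The C220 effect was called higher in 17-71 at 6 shared regions (beside 0.109% of all 9179 regions tested) and lower at 0 (beside 0%). The 6 were 0.0739% of the shared regions, against 0.379% called among the regions of 3 kb or more. At an unadjusted p below 0.05 by limma, 923 shared regions (11.4%) passed, beside 12% of all regions tested. Of these, 527 were higher, beside 7.52%, and 396 lower, beside 4.49%. A single region passed 2-fold as well (beside 0.0109%). This was chr6:42424775-42426407, with folds of 4.87, 4.34 and 4.08 in the 17-71 controls and 7.59 and 5.51 with C220, against 6.44 and 7.56 in the CLBL-1 controls and 4.39, 4.19 and 4.19 with C220. Both treated 17-71 libraries were above their controls and all 3 treated CLBL-1 libraries below theirs. The difference of effects in the fit on all 10 libraries was 1.33 ± 0.18 (SE, FDR = 0.0219, limma). The separate fits of each line, centred on their own tested regions, gave 0.64 in 17-71 and -0.72 in CLBL-1, neither called by itself.

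The same order was seen on chr8:39464244-39466211, 16750 bp from the region inside MAX. Its folds were 5.09, 4.41 and 4.45 in the 17-71 controls and 6.99 and 6.67 with C220, and 7.25 and 7.42 in the CLBL-1 controls and 5.89, 5.22 and 6.49 with C220. The treated libraries lay outside the range of the controls in both lines, and the difference was 0.95 ± 0.14 (FDR = 0.0252, limma). On chr27:17427544-17430279 the 17-71 folds were 2.90, 2.62 and 2.31 in control and 3.65 and 3.37 with C220, and the CLBL-1 folds 5.48 and 4.18 against 3.18, 3.31 and 3.70. On chr37:14713335-14715253 they were 4.51, 3.83 and 4.04 against 6.48 and 5.24, and 7.17 and 6.65 against 5.20, 5.25 and 5.804. Neither line's groups overlapped at these regions, whose differences of effects were 0.99 ± 0.15 and 0.92 ± 0.14.

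The remaining regions called, chr3:52584350-52586625 and chr7:32926465-32928182, had an FDR of 0.0879 and differences of 0.92 ± 0.17 and 0.85 ± 0.16. At the second, the folds were 5.96, 4.17 and 4.20 in the 17-71 controls and 8.10 and 6.09 with C220, and 9.25 and 8.41 against 7.31, 8.06 and 7.53 in CLBL-1. At all 6 regions both treated 17-71 libraries were above all 17-71 controls, and B4 was the highest 17-71 library. Of the regions lower in the difference, chr20:49370985-49372015 came closest, with 10.8, 7.10 and 9.30 in the 17-71 controls and 5.20 and 5.49 with C220, and 5.45 and 4.98 against 5.65, 5.78 and 7.38 in CLBL-1 (difference -0.93 ± 0.19, FDR = 0.119). It was followed by chr7:8333064-8334448 at -0.69 and by chr3:1154585-1155440, also at -0.69.

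The number of calls moved with single libraries. Without B4 the number of shared regions called was 0, while the differences at the 6 regions, in the order given, were 1.16, 0.98, 0.997, 0.83, 0.81 and 0.71. Without B6 more shared regions were called, in both directions, and the smallest difference at the 6 regions was 0.926. Both fits leave 1 library to stand for C220 in 17-71. The share of all regions tested is not given for them, so these calls do not set the shared regions apart. Leaving out B1 gave 11, B2 13, B3 3, C2 2, C3 2 and C4 1, again without the share of all regions tested. A fit with the replicate number as a block called 0, with differences from 0.87 to 1.32 at the 6 regions, and a fit without centring called 0.

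**Figure D5:**
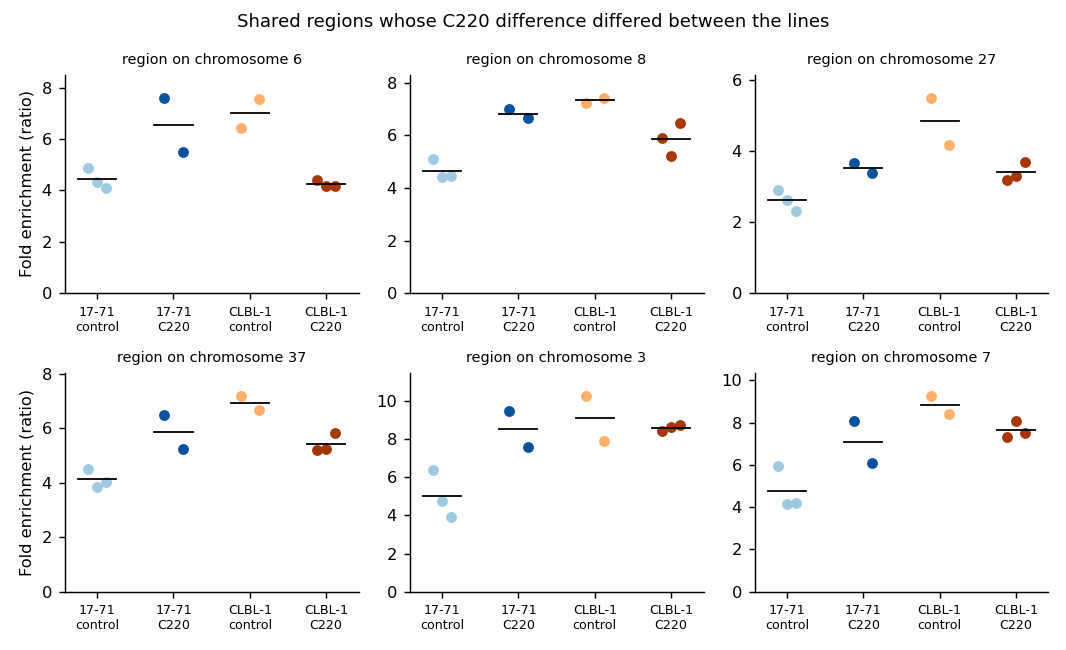
Fold enrichment (ratio, y axis, from 0) in each library of the 4 groups (x axis) at the 6 shared regions whose C220 difference differed between the lines at an FDR below 10%, with a point for each library. Short lines mark group means. In every panel the treated 17-71 libraries lie above their controls, and the treated CLBL-1 libraries lie below theirs except on chromosome 3, where C2 and C3 bracket them.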

How the data were processed

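Per the labels and the study's methods, the authors used Bowtie2 2.2.4 to place read pairs on CanFam3.1, with 1 reported place per pair, left out outlier samples after comparing read counts, and called broad peaks with MACS2 (version not given in the sources used here) in paired-end mode at a p cutoff of 1e-05. Each library was called by itself, without pooling. No input control, duplicate removal or mitochondrial filter is named there. The deposited lists give each peak's fold enrichment, a ratio that the caller averages over the peak, and the −log10 of its p-value and q-value. A −log10 p rises with depth, which the lists do not carry. The deposited whole-number score and the q-value were not used.

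Peaks that touched or overlapped were merged, and a region's value in a library was its largest peak fold. The members and all lists were chosen with earlier results of these data known. Log2 folds were centred by library on the median of the tested regions and fitted with limma 3.58.1 in R 4.3.3 (group means, mean-variance trend, Benjamini-Hochberg adjustment, FDR below 10%, and 2-fold). Replicates were unpaired in these fits. Regions with an incomplete set of values left the fits, so gained and lost sites were not tested. Library medians were compared by exact two-sided permutation tests. Regions named were the 5 of highest mean percentile, the 5 of smallest SD, the 3 of smallest p in each direction of each comparison (all 6 called in the difference of effects), the narrowest, and the 3 on each side of the width limit. Others named, the gene pairings among them, were chosen after their values were seen.

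Alternatives were no centring, quantile normalization, width-weighted folds, −log10 p in place of the fold, no trend, a minimum −log10 p of 10, an FDR of 5%, joint or blocked fits and leaving out each library. Merging and fits were tested on simulated data. Python 3.11.15 with numpy 2.4.6, pandas 2.3.3 and matplotlib 3.10.9 did the rest. No CanFam3.1 sequence was used, and the only annotation was the gene names and relations to genes in the study's table of regions. Motifs, base composition, sequences and start sites across the shared regions were therefore not analysed here.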

Additional observations from a re-analysis of the deposited data

Results flagged for a closer look

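At 6 shared regions the C220 effect differed between 17-71 and CLBL-1 by the interaction term of the limma fit, as given above with the folds of every library. The 6 were 0.0739% of the shared regions, beside 0.109% of all regions tested. Line and length of treatment cannot be told apart in this comparison. The difference, as the log2 effect in 17-71 minus that in CLBL-1, was 1.33 on chr6:42424775-42426407, 0.95 on chr8:39464244-39466211, 0.99 on chr27:17427544-17430279, 0.92 on chr37:14713335-14715253, 0.92 on chr3:52584350-52586625 and 0.85 on chr7:32926465-32928182. The FDR was 0.0219 for the first, 0.0252 for the next 3 and 0.0879 for the last 2. With B4 left out none was called, and the differences were 1.16, 0.98, 0.997, 0.83, 0.81 and 0.71 in the same order. None was called without centring (differences from 0.79 to 1.27, FDR from 0.159 to 0.863) or with the replicate number as a block (differences from 0.87 to 1.32).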

How the results depend on the processing

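Depth is unknown, groups hold 2 or 3 libraries, and a lone library left in an arm was assumed to vary like the other groups. For C220 in 17-71, with 0 shared regions called, the count was 1 without centring, 141 with −log10 p as the measure, 7 at a −log10 p of 10 or more, 279 in the fit on all 10 libraries, and 0 to 380 with a library left out. CLBL-1 stayed at 0 in every alternative run. Between the lines, 3888 became 5907 with −log10 p as the measure and 1571 at a −log10 p of 10 or more (3655 regions tested), and 3243 to 4065 with a library left out. The regions at least 2-fold apart, 13, became 24 (3 higher and 21 lower) without centring, 2066 with −log10 p as the measure and 3 at a −log10 p of 10 or more. The difference of effects, at 6, gave 0 without centring, 13 with −log10 p as the measure, 11 at a −log10 p of 10 or more, and 0 to 320 with a library left out. The cause of these moves was not tested, and the shares of all regions tested under these alternatives are not given. Rebuilt by the same rule, the set of 8124 regions became one of 3661 from peaks of a −log10 p of 10 or more alone, 4184 when peaks had to cover 50% of the region, 6392 from the 20000 strongest peaks of each library, and 8172 to 9243 with a library left out, most without B4. The difference of library medians ranged from -0.44 to 0.0748 in 17-71 and from -0.22 to 0.23 in CLBL-1 with a library left out. No region named for a comparison changed sign where it was called, but the balance between the lines (2002 higher and 1886 lower in 17-71) turned, to 712 higher and 3178 lower without centring, 1895 higher and 1988 lower with quantile normalization and 2672 and 3235 with −log10 p as the measure.

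Replicate numbers are shared between the lines, and a fit with the number as a block called 3306 shared regions between the lines and 0 in the difference of effects. The shares of all regions tested in these blocked fits are not given, so the counts do not set the shared regions apart. Deviations of libraries with the same number correlated at -0.093, 0.066, 0.038 and 0.027 for numbers 2, 3, 4 and 6. They were taken after centring, from means of groups of 2 or 3 libraries. They therefore cannot show whether libraries with the same number shared a culture or batch. Within a line, treated and control libraries share none, so no block could be fitted there.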
